A study of Mus musculus with 20 samples.

Results

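The glutathione, metallothionein and NRF2 defense genes were followed in LLC1 tumors from mice given vehicle, KW6002, cisplatin, or cisplatin and KW6002 together. The 48 genes were listed by mouse symbol for what their products do, by a rule that takes no measured value but was written with earlier results of these data known, and 47 of them were found among the 35226 genes of the count table; Gpx2, a glutathione peroxidase, had no row there and was not analysed here. All 47 had enough reads to be tested, as did 16665 genes in all. LLC1 is a mouse Lewis lung carcinoma line, whose cells were injected with Matrigel under the skin of the right flank of male C57BL6/J mice, 8 to 10 weeks old by the study's general methods, and treatment was allotted at random once the tumors had grown. Each of the 4 groups held 5 tumors. Cisplatin is a platinum drug that crosslinks DNA, and KW6002 (istradefylline) is an antagonist of the adenosine receptor encoded by Adora2a. The vehicle group received the solvent without drug, and no doses are given here because the sources used for these tumors do not state them. Whole tumors were sequenced, so each value mixes LLC1 cells with the blood vessels, macrophages and other host cells around them.

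Glutathione is a tripeptide that reduces peroxides and is joined to reactive compounds, platinum drugs among them. Glutamate-cysteine ligase makes its precursor in the rate-limiting step, glutathione synthetase completes it, peroxidases and transferases use it, and export pumps carry the conjugates out of the cell. Many of these genes are targets of the transcription factor NRF2, which KEAP1 holds back until oxidants or electrophiles modify it. Metallothioneins are small cysteine-rich proteins that bind zinc, copper and other metals, and their genes are induced by metals through the factor MTF1.

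Total counts ran from 28371364 to 40965731 reads per tumor, and the members were covered by 16 to 53520 reads per tumor. Library codes in the labels fell into an earlier and a later run of numbers, with 1 vehicle, 2 KW6002, 2 cisplatin and 3 cotreated tumors in the earlier run, so results are also given for the later run alone. Markers of other cells differed between groups. The summed level of 6 endothelial markers was 140 to 204 CPM (counts-per-million after TMM scaling) in vehicle, 122 to 194 in KW6002, 68.9 to 95.8 in cisplatin and 74.1 to 111 CPM in cotreated tumors. Of 7 red blood cell markers, 6 had at most 3 reads in every tumor of both cisplatin groups, and the 9 macrophage markers summed to 2297 to 3417 CPM in vehicle, 3164 to 4352 in cisplatin and 2658 to 3858 CPM in cotreated tumors. The 6 neutrophil markers summed to 44.7 to 120 CPM in vehicle, 48.5 to 147 in KW6002, 13.8 to 67.3 in cisplatin and 13.6 to 32.4 CPM in cotreated tumors. Fibroblast markers summed to 9782 to 12804 CPM in vehicle and 8542 to 14228 CPM in cisplatin tumors. In KW6002 and cotreated tumors they summed to 9947 to 11694 CPM and 10723.5 to 12210 CPM. Adipocyte markers summed to 21.4 to 295 CPM in vehicle and 12.8 to 34.6 CPM in cisplatin tumors. Their sums in KW6002 and cotreated tumors were 19.0 to 150 CPM and 27.7 to 71.8 CPM. The 7 markers of T and natural killer cells summed to 2.28 to 9.01 CPM in vehicle, 4.64 to 27.6 in KW6002, 3.78 to 11.7 in cisplatin and 2.90 to 5.83 CPM in cotreated tumors. Markers of epidermis, hepatocytes and kidney tubule summed to at most 1.78, 9.64 and 15.4 CPM in any tumor. Skeletal muscle genes exceeded 100 CPM in 1 KW6002, 3 cisplatin and 1 cotreated tumor. The markers of lung epithelium present in the table summed to at most 0.144 CPM in any tumor, so the tumors lacked the markers that define that tissue. The part of these cells in the values of the defense genes was not tested, and in whole tumors fewer cells of a type and less RNA per cell cannot be told apart.

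In vehicle tumors, the mean level per kilobase of exon (RPKM, the CPM divided by the exon length in kilobases) spanned from 280 for Mt2 to 0.668 for Gstt3. The metallothionein Mt2 was followed by Fth1, the heavy chain of the iron store ferritin, at 267 RPKM, and by Hmox1, the heme-degrading heme oxygenase, at 171 RPKM. Counted over the longest transcript in place of all exons, Fth1 was at 449 RPKM and Mt2 at 322 RPKM, so the order of these neighbours was not settled. The peroxidase Gpx1 was at 141 RPKM, and Nfe2l2, which encodes NRF2, ranked 10 among the members. Slc7a11, the cystine transporter that feeds glutathione synthesis, lay next to the bottom at 0.807 RPKM, and over the longest transcript it lay below Gstt3 (1.22 and 1.29 RPKM). In all, 38 of 47 members had another rank over the longest transcript, by at most 6 places. Gclc, the catalytic subunit of glutamate-cysteine ligase, moved most in rank, from place 26 in vehicle tumors (14.5 RPKM) to place 23 after cisplatin (24.4 RPKM) and place 14 after cotreatment (47.8 RPKM).

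**Figure D1:**
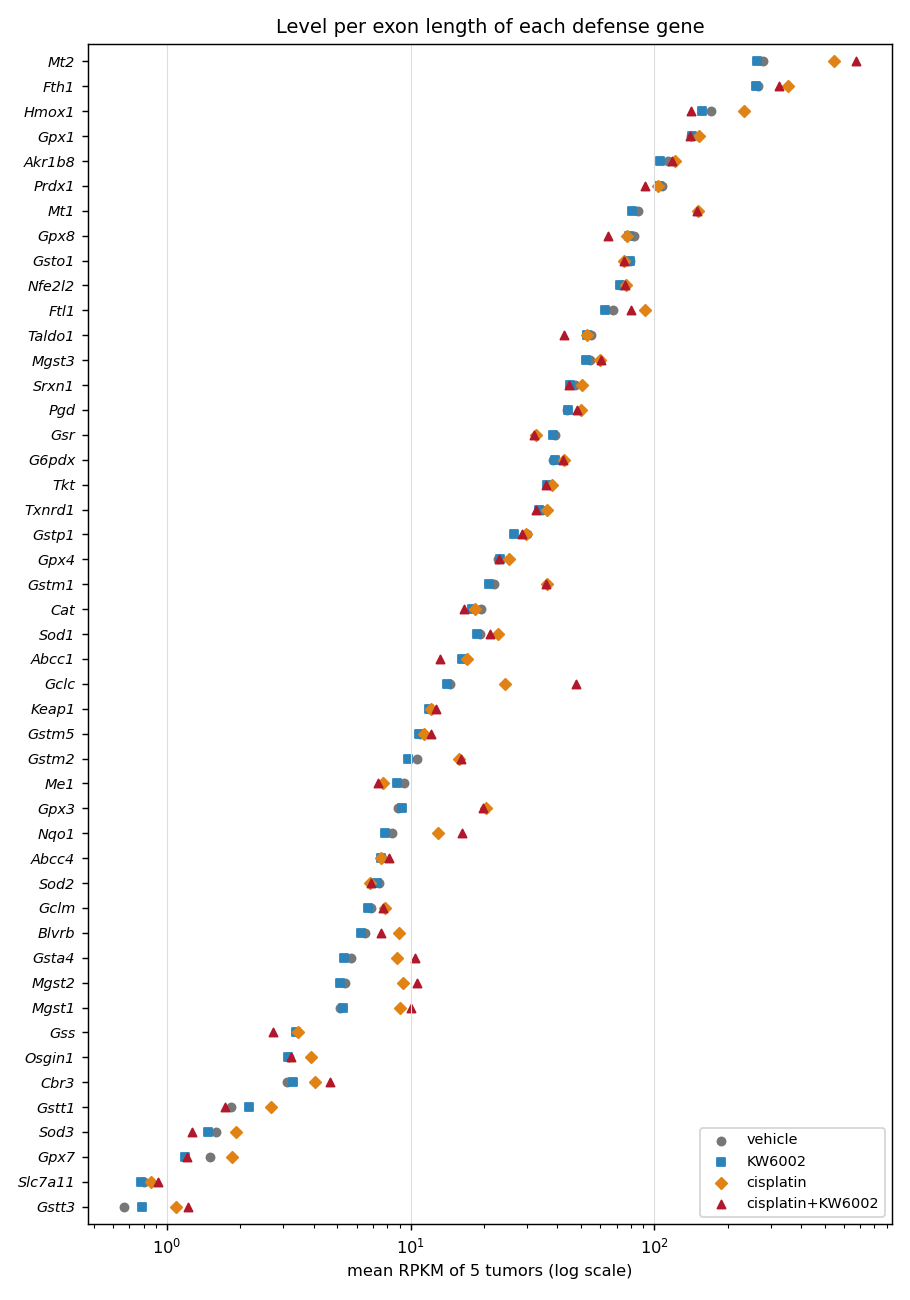
Mean level of each of the 47 measured members, in RPKM on a log scale, with 1 symbol per treatment group of 5 tumors and genes ordered by the vehicle level. The symbols of a gene mostly lie together, while those of Gclc spread from 14.5 RPKM in vehicle to 47.8 RPKM in cotreated tumors.

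KW6002 on its own was compared with vehicle to see what blockade of that receptor did to these genes without cisplatin. None of the 47 members was called (adjusted p under 0.05 and an absolute log2 fold change of at least 0.32, edgeR's quasi-likelihood test), against 0% of all genes. Not one member reached an unadjusted p under 0.05, where 339 of 16665 genes did, a share so low that 0 of 47 does not set the members apart. DESeq2 called 0 members and 0 genes. The median log2 fold change of the members was -0.04, beside -0.00 for all genes. Gclc changed by -0.03 ± 0.17 (log2, SE), Nqo1 by -0.09 ± 0.18 and Mt2 by -0.08 ± 0.52, so a sizeable change of Mt2 was not detectable at this spread.

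Cisplatin was compared with vehicle for the response of the defense genes to the platinum drug. Members that rose were mainly genes that make or use glutathione: Gclc, the transferases Mgst2, Gstm1, Gstm2, Gstt3 and Gstt1, the reductases Nqo1 and Cbr3, and Fth1. In all, 9 of 47 members were called, 19.1% against 10.6% of all genes tested. All 9 were higher, where 6.01% of all genes were called higher, and 0 were lower, where 4.57% of all genes were called lower. The median log2 fold change was 0.15 over the members and 0.00 over all genes, with 37 members above 0. In the later library run alone 13 members were called, all higher, beside 2743 of 17222 genes. With no filter on low counts 6 were called, all higher, beside 1469 of 35226 genes. With only the tumors of the groups compared 6 were called, all higher, beside 1269 of 15791 genes. Without the tumors above 100 CPM of skeletal muscle genes, 6 were called, all higher, beside 1189 of 17318 genes. The calls for Gstt1, Fth1 and Cbr3 were lost in each of these fits with 6 members, at log2 changes of 0.39 to 0.62. Each was also lost in several fits that left out 1 tumor, as given with each gene below.

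Cotreatment was compared with the same 5 vehicle tumors, so the 2 comparisons share their controls. Of the members, 8 were higher, where 13.1% of all genes were called higher, and 4 were lower, where 10.4% were. The total of 12 members, 25.5%, was close to the 23.5% of all genes called, and the median log2 fold change was 0.08 against -0.02 for all genes. Higher were Gclc, Mgst2, Gstm1, Gstm2, Gstt3, Gsta4, Nqo1 and Cbr3. Lower were Gpx8, Taldo1, Me1 and Abcc1, a peroxidase, 2 enzymes of NADPH supply or the pentose phosphate pathway and a conjugate exporter. In the later run alone 11 members were higher and 1 was lower, beside 1289 genes higher and 920 lower of 17222.

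**Figure D2:**
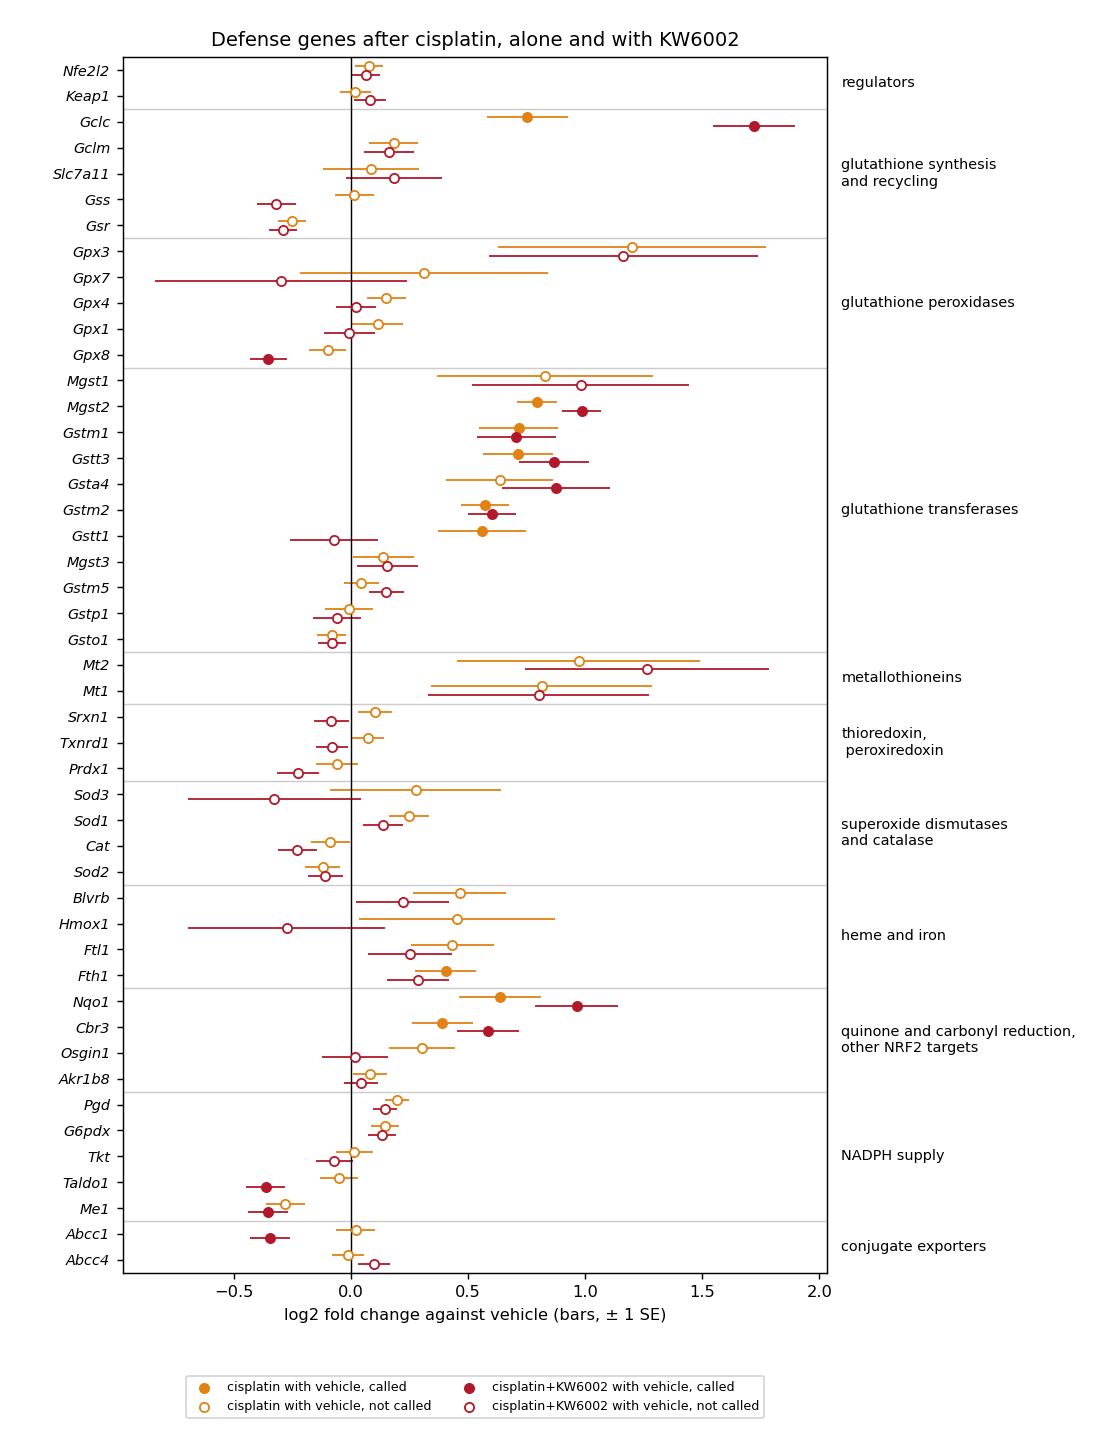
Log2 fold change of each of the 47 members against vehicle, with bars of 1 SE, after cisplatin (orange) and after cisplatin with KW6002 (red), in blocks by role. Filled symbols are called members. Gclc stands farthest to the right at 1.72 after cotreatment, and the wide bars of Mt1, Mt2, Gpx3, Gpx7, Mgst1 and Hmox1 show the spread between tumors.

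The regulators of the pathway were not called in any comparison. Nfe2l2 was at 259, 286, 260, 297 and 268 CPM in vehicle, 273, 268, 267, 269 and 296 in KW6002, 278, 303, 307, 255 and 303 in cisplatin, and 303, 265, 273, 307 and 286 CPM in cotreated tumors. The 4 groups overlapped. The log2 fold changes from vehicle were 0.08 ± 0.06 (SE; adjusted p = 0.399) after cisplatin and 0.06 ± 0.06 (adjusted p = 0.435) after cotreatment. Keap1, whose product marks NRF2 for degradation, was at 58.1, 55.6, 63.0, 52.2 and 51.9 CPM in vehicle, 55.7, 57.0, 58.0, 54.4 and 54.9 in KW6002, 51.5, 49.6, 56.7, 65.3 and 61.3 in cisplatin, and 58.2, 59.9, 57.3, 63.2 and 58.4 CPM in cotreated tumors. These ranges overlapped as well, with changes of 0.02 ± 0.07 and 0.08 ± 0.07. Exons of Keap1, Gclm, Gss, Gstm5, Mt2, Ftl1, G6pdx and Me1 overlap a gene on the opposite strand, and the sources do not say whether counting used strand, so reads of these pairs may not be told apart.

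Among the genes of glutathione synthesis, Gclc rose alone. Gclc (ENSMUSG00000032350, GRCm38 chromosome 9, 77754535 to 77794485, plus strand) was at 50.7, 50, 58.5, 58.5 and 55.0 CPM in vehicle and 52.6, 44.5, 55.2, 57.5 and 56.5 CPM in KW6002 tumors. Cisplatin tumors had 68.8, 107, 75.2, 91.1 and 118 CPM, and cotreated tumors 134, 257, 195, 123 and 191 CPM. Every cisplatin tumor lay above every vehicle tumor, and every cotreated tumor lay above every cisplatin tumor. The change from vehicle was 0.75 ± 0.17 on the log2 scale after cisplatin (SE; 1.69-fold, adjusted p = 0.00613) and 1.72 ± 0.17 after cotreatment (3.30-fold, adjusted p = 1.21e-06). In the later run alone the 2 changes were 0.79 (adjusted p = 0.00747) and 1.52 (adjusted p = 0.000488).

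The partner subunit of the ligase was not called. Gclm, the modifier subunit that makes the ligase more efficient, had 43.2 ± 5.98 CPM in vehicle, 49.1 ± 8.68 after cisplatin and 48.4 ± 3.27 CPM after cotreatment (SD, n = 5), with log2 changes of 0.18 ± 0.11 and 0.16 ± 0.11 (adjusted p = 0.247 for each). The ratio of Gclc to Gclm CPM was 1.27 ± 0.145 in vehicle, 1.27 ± 0.0913 in KW6002, 1.89 ± 0.358 in cisplatin and 3.71 ± 1.01 in cotreated tumors. Slc7a11 was at 11.8, 9.60, 12.6, 14.1 and 8.12 CPM in vehicle, 11.5, 9.0, 12.9, 13.1 and 7.77 in KW6002, 10.1, 14.3, 7.93, 9.66 and 17.6 in cisplatin, and 11, 12.2, 15.2, 15.3 and 10.3 CPM in cotreated tumors. All of its groups overlapped, and its changes were 0.09 ± 0.20 and 0.18 ± 0.20.

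Glutathione synthetase and glutathione reductase were not called in either comparison with vehicle. Gss, the synthetase, was at 19.7, 22.7, 19.7, 19.4 and 19.1 CPM in vehicle, 20.1, 19.6, 23.0, 19.2 and 17.7 in KW6002, 21.8, 17.6, 22.0, 20.8 and 19.4 in cisplatin, and 17.1, 16.5, 14.2, 17.9 and 15.0 CPM in cotreated tumors. Cotreated tumors lay below all vehicle tumors, and the change of -0.32 ± 0.08 (adjusted p = 0.00552) fell just short of the fold limit. It passed that limit without vehicle replicate 4 or 5 or cotreated replicate 1 or 4, at -0.35 to -0.33. The gene opposite Gss is Acss2. Gsr, which regenerates reduced glutathione, changed by -0.25 ± 0.06 after cisplatin (adjusted p = 0.00661) and -0.29 ± 0.06 after cotreatment (adjusted p = 0.000776), also under the fold limit, with 96.9 to 119 CPM in vehicle and 80.8 to 93.6 CPM in cotreated tumors.

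**Figure D3:**
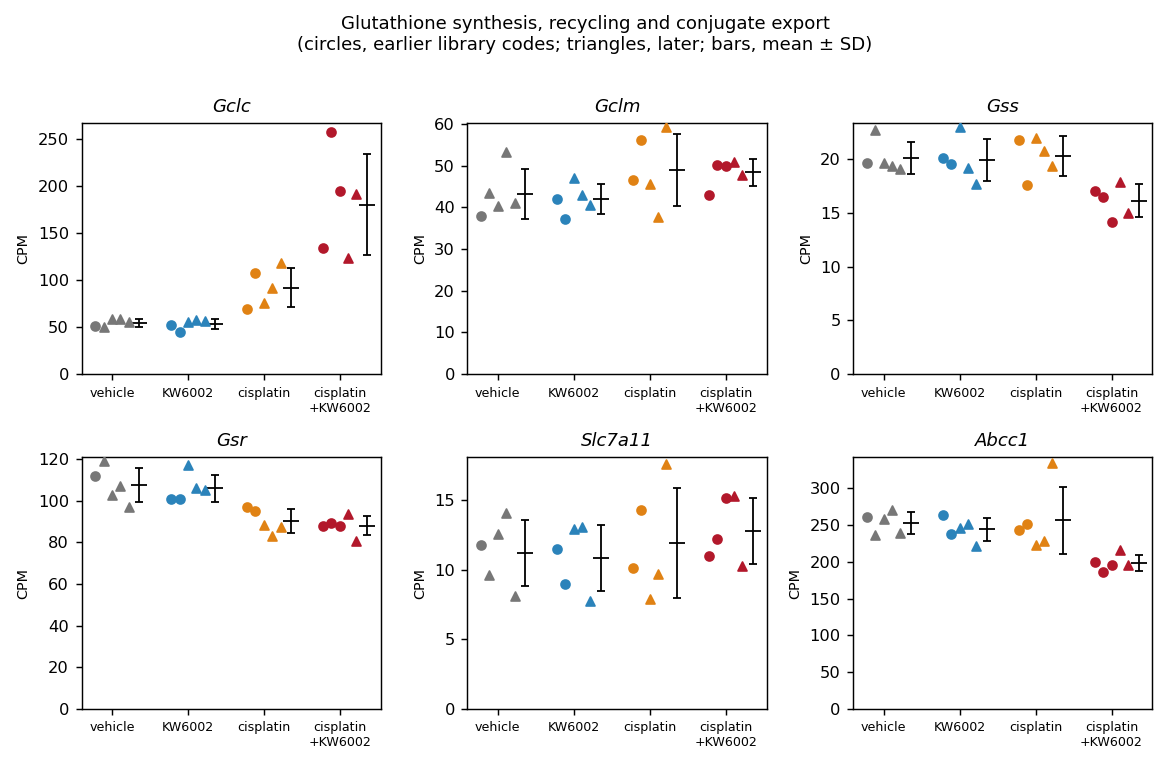
CPM in each tumor for genes of glutathione synthesis, recycling and conjugate export, by treatment group, with the mean and SD of 5 tumors to the right of the points and the library run shown by circles and triangles. The cotreated tumors range from 123 to 257 CPM for Gclc, above all others, while the group means of Gclm lie between 42.0 and 49.1 CPM.

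The glutathione transferases, which join glutathione to reactive compounds, held the most members that rose. After cisplatin 5 of 11 were called higher, 45.5% against 6.01% of all genes, and after cotreatment 5 of 11 were again called higher, against 13.1% of all genes, with 0 lower. Mgst2, a transferase of the endoplasmic reticulum membrane (ENSMUSG00000074604, chromosome 3, 51660360 to 51682677, plus strand), had the smallest adjusted p of all members. It was at 18.1, 20.6, 18.6, 22.1 and 19.9 CPM in vehicle, 19.6, 17.1, 20.2, 17.4 and 20.9 in KW6002, 32.0, 41.7, 34.3, 32.1 and 32.0 in cisplatin, and 36.5, 44.4, 39.2, 38.5 and 38.1 CPM in cotreated tumors. The tumors given cisplatin, with or without KW6002, lay apart from and above the other 10. The changes from vehicle were 0.79 ± 0.08 (adjusted p = 4.18e-06) and 0.99 ± 0.08 (adjusted p = 9.06e-08).

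Gstm1 and Gstm2, cytosolic transferases of the mu class whose genes lie near each other on chromosome 3, rose alike. Gstm1 had 32.4 ± 3.39 CPM in vehicle, 30.9 ± 4.03 in KW6002, 53.3 ± 14.3 after cisplatin and 52.9 ± 11.8 CPM after cotreatment (SD, n = 5), with changes of 0.72 ± 0.17 (adjusted p = 0.00708) and 0.71 ± 0.17 (adjusted p = 0.00288). Gstm2 had 17.8 ± 1.75, 16.4 ± 1.63, 26.5 ± 3.41 and 27.1 ± 3.37 CPM in the same order, with changes of 0.57 ± 0.10 (adjusted p = 0.000749) and 0.60 ± 0.10 (adjusted p = 0.000125). The lowest cisplatin and cotreated tumors exceeded the highest vehicle tumor for both genes. Mu-class genes resemble each other, and reads that fit several copies were not counted, so each level is uncertain. Gstm5, of the same class, changed by 0.04 ± 0.08 and 0.15 ± 0.08 and was not called.

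Of the theta class, Gstt3 and Gstt1 differed in the cotreated tumors. Gstt3 rose from 2.57 ± 0.445 CPM in vehicle to 4.20 ± 0.504 after cisplatin and 4.68 ± 0.707 CPM after cotreatment, changes of 0.71 ± 0.15 (adjusted p = 0.00283) and 0.87 ± 0.15 (adjusted p = 0.000149). Gstt1 was at 2.45, 3.94, 1.80, 2.92 and 2.80 CPM in vehicle, 2.80, 3.97, 3.45, 3.11 and 3.29 in KW6002, 4.67, 3.83, 3.30, 4.66 and 4.05 in cisplatin, and 2.23, 2.18, 2.11, 3.77 and 2.93 CPM in cotreated tumors. Only 1 vehicle tumor reached into the cisplatin range, and the cotreated tumors overlapped the vehicle tumors. Its change after cisplatin was 0.56 ± 0.19 (adjusted p = 0.0443) and after cotreatment -0.07 ± 0.19 (adjusted p = 0.803). The first of these is fragile: without vehicle replicate 3 it was 0.45 (adjusted p = 0.101), without vehicle replicate 1, 4 or 5 or any of cisplatin replicates 1, 2, 4 and 5 the adjusted p was also above 0.05, and in the later run alone it was 0.50 (adjusted p = 0.11).

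Gsta4, an alpha-class transferase that clears the lipid peroxidation product 4-hydroxynonenal, had 7.18 ± 0.948 CPM in vehicle, 11.1 ± 4.83 in cisplatin and 13.2 ± 3.15 CPM in cotreated tumors. It was called after cotreatment (0.87 ± 0.23, adjusted p = 0.00558) and not after cisplatin (0.63 ± 0.23, adjusted p = 0.0639), where 1 tumor reached 19.2 CPM. After cisplatin it was called by DESeq2 (0.64, adjusted p = 0.0314), with the run as a term (0.70, adjusted p = 0.017), in the later run alone (0.80, adjusted p = 0.0378) and without cisplatin replicate 1 or 3. The difference between cotreatment and cisplatin, 0.24 ± 0.23 (adjusted p = 0.552), did not pass the test. Gstp1, Gsto1 and Mgst3 changed by -0.08 to 0.14 after cisplatin and were not called over all tumors, and Mgst3 was called after cotreatment in the later run alone (0.45, adjusted p = 0.018). Mgst1 had log2 changes of 0.83 ± 0.46 and 0.98 ± 0.46 and was not called, though with the run as a term it was called after cotreatment (1.20, adjusted p = 0.0418), with 5.31 to 35.3 CPM among cisplatin tumors.

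**Figure D4:**
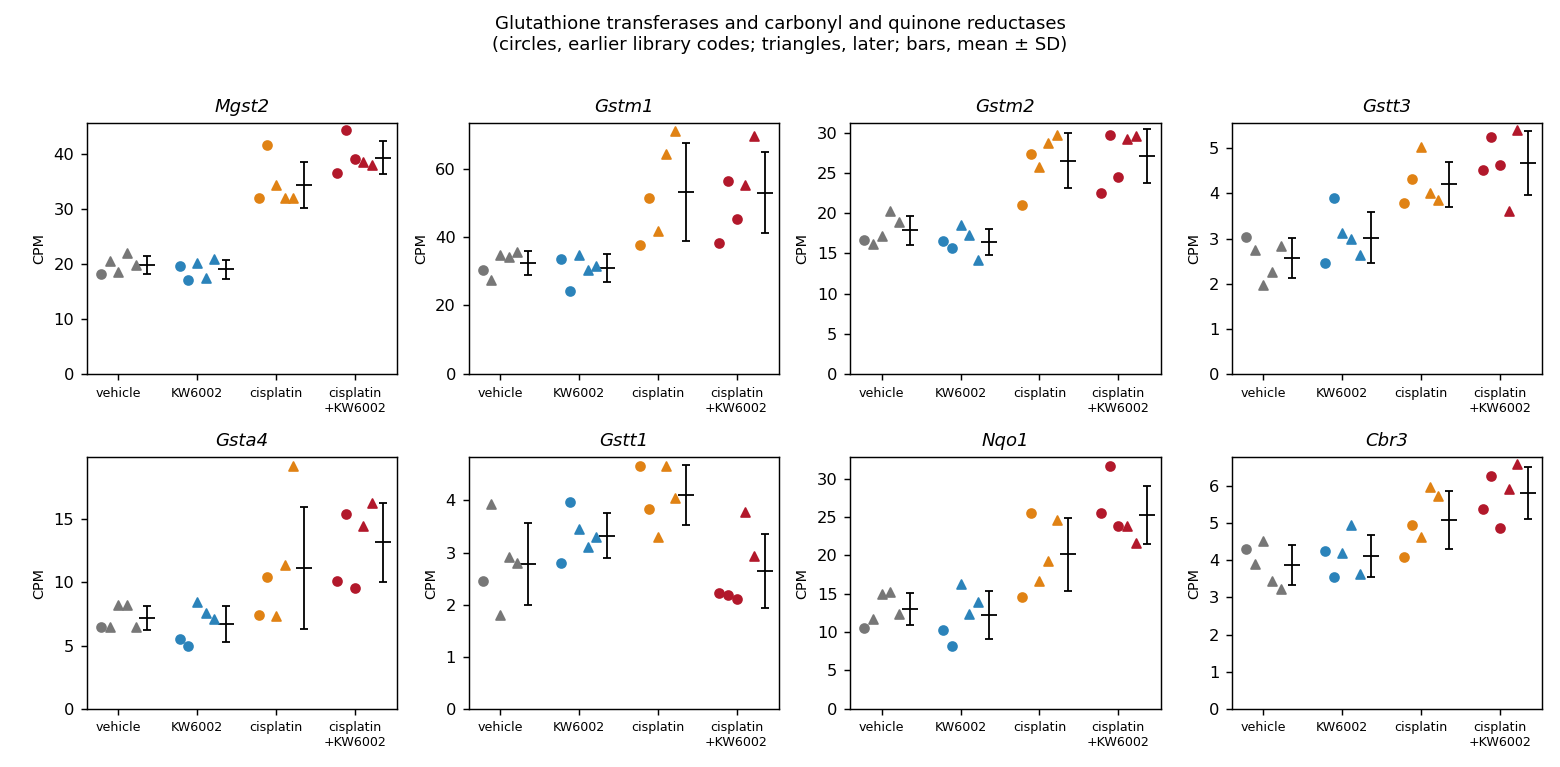
CPM in each tumor for 6 glutathione transferases and the reductases Nqo1 and Cbr3, by treatment group, with mean and SD of 5 tumors. Mgst2 separates the cisplatin and cotreated tumors (32.0 to 44.4 CPM) from the vehicle and KW6002 tumors (17.1 to 22.1 CPM), and Gstt1 is the panel in which the cotreated tumors return to the vehicle range.

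The metallothioneins varied widely between tumors, and neither was called in the fit over all tumors, though other fits called them in cotreated tumors. Mt2 (ENSMUSG00000031762, chromosome 8, 94172664 to 94173568, plus strand) was at 220, 135, 246, 95.6 and 126 CPM in vehicle and 239, 124, 168, 165 and 79.1 CPM in KW6002 tumors. Cisplatin tumors had 101, 101, 149, 525 and 735.5 CPM, and cotreated tumors 242, 474, 316, 396 and 545 CPM. Of the cisplatin tumors 3 sat within the vehicle range and 2, replicates 4 and 5, far above it, whereas 4 of 5 cotreated tumors lay above the highest vehicle tumor. The changes were 0.97 ± 0.52 (adjusted p = 0.217) and 1.26 ± 0.52 (adjusted p = 0.071). DESeq2 called the change after cotreatment (1.27, adjusted p = 0.0421), as did a fit on the 10 tumors compared (1.27, adjusted p = 0.0154). Against KW6002, cotreatment was called for Mt2 by DESeq2 (1.35, adjusted p = 0.0269), in the 10 tumors compared (1.35, adjusted p = 0.0114), with at least 10 counts in every tumor (1.36, adjusted p = 0.0497) and without cisplatin replicate 1, 2 or 5.

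Mt1 (ENSMUSG00000031765, chromosome 8, 94179082 to 94180327, plus strand), its neighbour, followed the same tumors. It was at 133, 91.5, 160, 65.5 and 82.4 CPM in vehicle, 142, 76.8, 111, 111 and 63.5 in KW6002, 68.3, 60.9, 103, 316 and 391 in cisplatin, and 107, 219, 152, 202 and 250 CPM in cotreated tumors. The cisplatin replicates 4 and 5 were again the high ones, and the groups overlapped. Its changes were 0.82 ± 0.47 (adjusted p = 0.253) and 0.80 ± 0.47 (adjusted p = 0.203). Against KW6002, cotreatment was called for Mt1 in the 10 tumors compared (0.89, adjusted p = 0.0395). Both high tumors belong to the later library run. The same 2 tumors, picked because Mt1 and Mt2 were high there, were the highest of their group for 27 of 47 members. That was 57.4% against 24% of all genes tested, and the 27 include Mt1 and Mt2 themselves. Also among the 27 were Hmox1, Gpx3, Gpx7, Mgst1, Gsta4 and the called Fth1, Cbr3, Gstm1 and Gstm2. Gstm1 and Gstm2 kept their cisplatin calls in every fit that left out 1 tumor.

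The promoters of the metallothioneins are shown because the 2 genes moved together across tumors. The stretch runs from 250 bases before to 50 after the transcription start, taken from RefSeq on GRCm38.p6, at chr8:94178839-94179138 for Mt1 and chr8:94172368-94172667 for Mt2, both on the plus strand. Capitals mark the core letters of the metal response element, TGCACNC or TGCGCNC, and of the antioxidant response element, TGACNNNGC, searched on both strands.
Mt1: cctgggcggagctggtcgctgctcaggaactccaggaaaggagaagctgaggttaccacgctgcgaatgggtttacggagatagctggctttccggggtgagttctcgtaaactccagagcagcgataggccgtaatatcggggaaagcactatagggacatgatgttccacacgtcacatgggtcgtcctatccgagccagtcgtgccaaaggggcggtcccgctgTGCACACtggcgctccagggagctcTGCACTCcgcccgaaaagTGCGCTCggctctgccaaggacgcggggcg
Mt2: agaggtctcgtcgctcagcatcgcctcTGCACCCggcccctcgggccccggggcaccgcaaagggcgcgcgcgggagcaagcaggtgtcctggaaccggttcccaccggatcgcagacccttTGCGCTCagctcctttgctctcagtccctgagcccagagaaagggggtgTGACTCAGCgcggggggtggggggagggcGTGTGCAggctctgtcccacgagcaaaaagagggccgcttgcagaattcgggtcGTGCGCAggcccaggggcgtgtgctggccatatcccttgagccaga
The Mt1 stretch holds 3 metal response cores, and the Mt2 stretch holds 4 with 1 antioxidant response core (TGACTCAGC) that begins 79 bases before the start. Metal response cores were found in 25.7% of 32851 promoters of this length and in 12 of the 55 promoters listed for members, and antioxidant response cores in 12.4% of promoters and in 14 of the 55. A match of letters is a description and not a bound site.

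**Figure D5:**
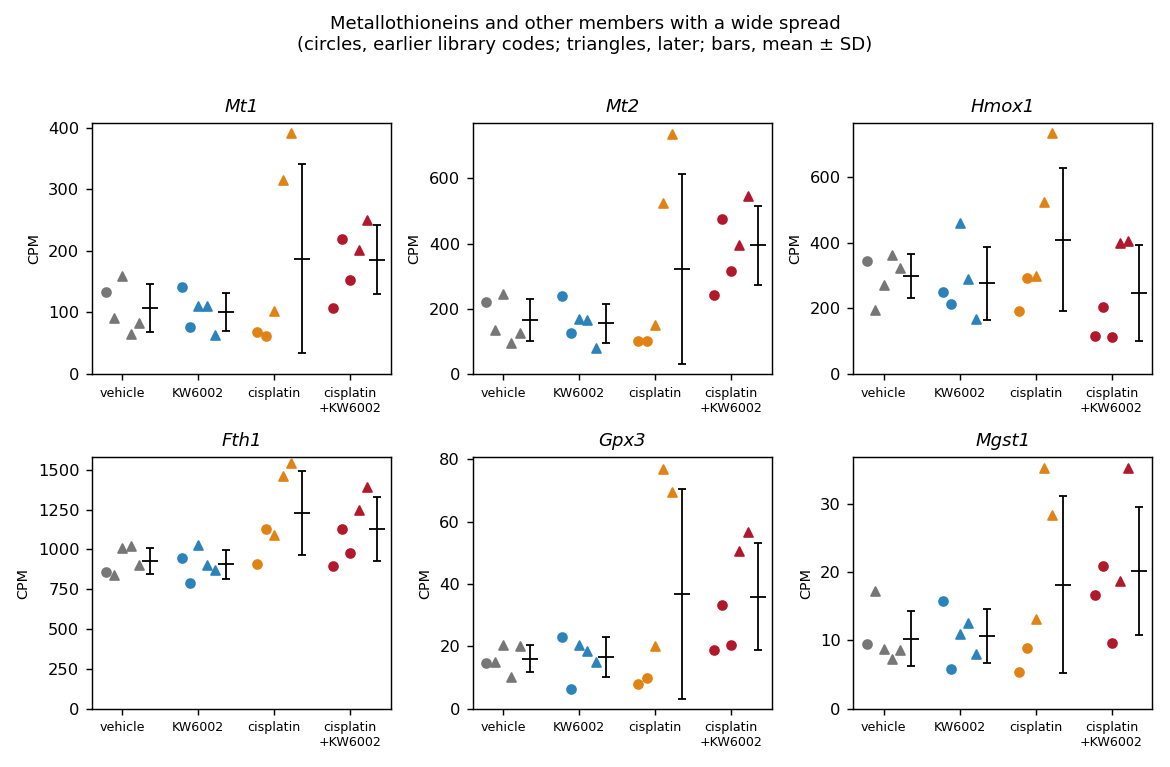
CPM in each tumor for the metallothioneins Mt1 and Mt2, Hmox1, Fth1, Gpx3 and Mgst1, by treatment group, with mean and SD of 5 tumors; circles and triangles mark earlier and later library codes. Cisplatin replicates 4 and 5 stand above the other 3 in each panel, at 525 and 735.5 CPM for Mt2.

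Of the 5 glutathione peroxidases, 0 were called after cisplatin, against 10.6% of all genes, and 1 after cotreatment, which at 20% was near the 23.5% of all genes. That gene, Gpx8, a peroxidase of the endoplasmic reticulum, was at 78.6, 81.7, 81.7, 99.7 and 90.1 CPM in vehicle, 86.6, 78.8, 86.2, 83.8 and 77.3 in KW6002, 77.7, 79.0, 74.8, 89.8 and 81.8 in cisplatin, and 63.4, 59.0, 61.6, 77.8 and 76.1 CPM in cotreated tumors. Cotreated tumors lay below all vehicle tumors, a change of -0.35 ± 0.08 (adjusted p = 0.00153). The 3 lowest of them carry earlier library codes; in the later run alone Gpx8 changed by -0.18 (adjusted p = 0.206), with the run as a term in the fit by -0.30 (adjusted p = 0.00305, under the fold limit), and without vehicle replicate 4, cotreated replicate 2 or cotreated replicate 3 by -0.30, -0.30 and -0.31 (adjusted p = 0.006, 0.00887 and 0.0079), each under the fold limit.

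Gpx3, the secreted peroxidase, averaged 16.1 ± 4.32 CPM in vehicle, 36.9 ± 33.6 in cisplatin and 35.9 ± 17.2 CPM in cotreated tumors. Its changes of 1.20 ± 0.57 (adjusted p = 0.168) and 1.16 ± 0.57 (adjusted p = 0.128) were not called, and in the later run alone they were 1.77 (adjusted p = 0.0219) and 1.73 (adjusted p = 0.0407). The change after cotreatment was also called with the run as a term (1.44, adjusted p = 0.0333) and in a fit on the 10 tumors compared (1.18, adjusted p = 0.0325). Gpx1, and Gpx4, which protects lipids, changed by -0.01 to 0.15 in the 2 comparisons, and Gpx7 by 0.31 ± 0.53 and -0.30 ± 0.54, and none of the 3 was called.

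Sod2, the mitochondrial superoxide dismutase, was at 72.8, 70.9, 75.8, 85.8 and 64.6 CPM in vehicle, 78.6, 74.7, 74.8, 69.9 and 66.5 in KW6002, 61.1, 67.7, 61.1, 71.4 and 78.9 in cisplatin, and 66.7, 73.6, 66.7, 66.8 and 68.9 CPM in cotreated tumors. The groups overlapped, and the changes were -0.12 ± 0.07 and -0.11 ± 0.07. Catalase (Cat), which splits hydrogen peroxide, was at 48.5, 49.3, 45.7, 56.8 and 53.5 CPM in vehicle, 47.4, 42.8, 48.1, 46.1 and 48.1 in KW6002, 42.0, 41.8, 48.7, 50.1 and 56.0 in cisplatin, and 37.3, 44.9, 40.0, 45.7 and 48.4 CPM in cotreated tumors. Its change of -0.23 ± 0.08 after cotreatment (adjusted p = 0.0365) stayed under the fold limit. The cytosolic Sod1 (0.25 ± 0.09 after cisplatin, adjusted p = 0.0548, and 0.41 in the later run alone, where it was called with adjusted p = 0.0074) and extracellular Sod3 were not called over all tumors, nor were Txnrd1 (thioredoxin reductase), Srxn1 (sulfiredoxin) and Prdx1 (peroxiredoxin), NRF2 targets whose changes lay between -0.23 and 0.10.

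Of the 4 genes of heme and iron, 1, Fth1, was called after cisplatin, 25% against 10.6% of all genes. Fth1 was at 859, 842, 1010, 1020 and 902 CPM in vehicle, 946, 786, 1030, 902 and 868 in KW6002, 909, 1130, 1090, 1460 and 1540 in cisplatin, and 893, 1130, 978, 1250 and 1390 CPM in cotreated tumors. The groups overlapped, with cisplatin replicates 4 and 5 the highest. The change was 0.40 ± 0.13 after cisplatin (adjusted p = 0.0396) and 0.29 ± 0.13 after cotreatment (adjusted p = 0.0965), a difference of -0.12 ± 0.13 (adjusted p = 0.619). Without cisplatin replicate 5 the first change was 0.32 (adjusted p = 0.111) and without replicate 4 it was 0.35 (adjusted p = 0.104); without vehicle replicate 1, 2 or 5 it was 0.39, 0.38 and 0.40 (adjusted p = 0.0734, 0.0829 and 0.0743). The change after cotreatment was called with the run as a term (0.38, adjusted p = 0.00914), in the later run alone (0.51, adjusted p = 0.0163) and without cotreated replicate 1 (0.36, adjusted p = 0.0403). Against KW6002, cotreatment was not called for Fth1 over all tumors. Among other fits, it was called by DESeq2 (0.32, adjusted p = 0.0484) and in the later run alone (0.51, adjusted p = 0.027). Ferritin genes have processed copies, and reads that fit several places were not counted.

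Hmox1 was not called, and its tumors were widely spread. It was at 345, 196, 270, 361 and 322 CPM in vehicle, 248, 213, 460, 289 and 167 in KW6002, 193, 293, 299, 525 and 733.9 in cisplatin, and 115, 203, 113, 399 and 405 CPM in cotreated tumors. The ranges overlapped throughout. The log2 changes were 0.45 ± 0.42 (adjusted p = 0.493) and -0.28 ± 0.42 (adjusted p = 0.649). Ftl1, the ferritin light chain, and Blvrb, a biliverdin reductase, changed by 0.43 ± 0.18 and 0.46 ± 0.20 after cisplatin (adjusted p = 0.105 and 0.117) and were not called over all tumors. Blvrb was called after cisplatin in the later run alone (0.74, adjusted p = 0.0455) and without vehicle replicate 3 or cisplatin replicate 2 (0.63 and 0.58, adjusted p = 0.039 and 0.0456). Ftl1 was called without vehicle replicate 4 or cisplatin replicate 1 (0.56 and 0.55, adjusted p = 0.0491 and 0.0372).

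The quinone and carbonyl reductases Nqo1 and Cbr3, known NRF2 targets, rose. Nqo1 (ENSMUSG00000003849, chromosome 8, 107388225 to 107403206, minus strand) was at 10.5, 11.7, 15.0, 15.2 and 12.3 CPM in vehicle, 10.2, 8.22, 16.2, 12.3 and 13.9 in KW6002, 14.5, 25.5, 16.7, 19.3 and 24.6 in cisplatin, and 25.5, 31.6, 23.8, 23.8 and 21.6 CPM in cotreated tumors. Only 1 cisplatin tumor fell within the vehicle range, and all cotreated tumors lay above it. The changes were 0.63 ± 0.18 (adjusted p = 0.0173) and 0.96 ± 0.18 (adjusted p = 0.000288), and in the later run alone 0.59 (adjusted p = 0.0117) and 0.76 (adjusted p = 0.00614). Cotreatment and cisplatin differed by 0.33 ± 0.17 (adjusted p = 0.261), which did not pass the test.

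Cbr3 had 3.88 ± 0.548 CPM in vehicle, 4.12 ± 0.575 in KW6002, 5.08 ± 0.782 in cisplatin and 5.81 ± 0.695 CPM in cotreated tumors. Its change after cotreatment was 0.58 ± 0.13 (adjusted p = 0.00156). After cisplatin it was 0.39 ± 0.13 (adjusted p = 0.0464). That call was lost in 11 of 20 fits that left out 1 tumor, with adjusted p up to 0.118 without vehicle replicate 5. The log2 change in the fits that lost it was 0.34 to 0.43. The call was also lost with no filter on low counts (0.39, adjusted p = 0.11) and with only the tumors of the groups compared (0.39, adjusted p = 0.0958). Without the tumors above 100 CPM of skeletal muscle genes it was lost at 0.50 (adjusted p = 0.0836). Akr1b8, an aldo-keto reductase, and Osgin1, an NRF2-responsive growth inhibitor, were not called over all tumors (0.08 ± 0.07 and 0.30 ± 0.14 after cisplatin). In the later run alone Osgin1 was called after cisplatin (0.52, adjusted p = 0.0394).

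Not every NRF2 target was higher, and Me1 was lower. Me1, malic enzyme, which yields NADPH, had 36.1 ± 5.82 CPM in vehicle, 29.7 ± 1.33 in cisplatin and 28.2 ± 1.89 CPM in cotreated tumors. Its change after cotreatment was -0.35 ± 0.08 (adjusted p = 0.00231) and after cisplatin -0.28 ± 0.08 (adjusted p = 0.025, under the fold limit). Without vehicle replicate 4 the cotreatment change was -0.26 (adjusted p = 0.00601), and without cotreated replicate 5 it was -0.30 (adjusted p = 0.01), both under the fold limit. The promoters of Nqo1 (chr8:107403156-107403455, minus strand) and Me1 (chr9:86695865-86696164, minus strand; another Me1 start is also listed) are shown in the same way as those above, as a pair that moved in opposite directions.
Nqo1: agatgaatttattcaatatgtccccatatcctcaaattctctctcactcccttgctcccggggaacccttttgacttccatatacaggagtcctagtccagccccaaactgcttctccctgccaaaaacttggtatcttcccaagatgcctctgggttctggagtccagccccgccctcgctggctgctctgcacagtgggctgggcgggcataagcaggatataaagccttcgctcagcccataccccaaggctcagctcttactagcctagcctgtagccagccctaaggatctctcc
Me1: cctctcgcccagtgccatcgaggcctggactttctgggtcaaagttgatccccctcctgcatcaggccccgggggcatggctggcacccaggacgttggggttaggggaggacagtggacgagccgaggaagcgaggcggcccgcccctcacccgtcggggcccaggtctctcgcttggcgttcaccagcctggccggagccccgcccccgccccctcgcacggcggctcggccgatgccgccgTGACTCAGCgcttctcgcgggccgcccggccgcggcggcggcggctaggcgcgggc
The Me1 stretch holds 1 antioxidant response core, TGACTCAGC, which begins 6 bases before the start. None of the letters searched were found in the Nqo1 stretch, which covers only these 300 bases.

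Of the other genes of NADPH supply, G6pdx, Pgd and Tkt were not called. G6pdx, the entry enzyme of the pentose phosphate pathway, was at 107, 118, 116, 134 and 118 CPM in vehicle, 112, 117, 130, 121 and 120 in KW6002, 131, 145, 124, 122 and 133 in cisplatin, and 135, 134, 128, 131 and 123 CPM in cotreated tumors. The groups overlapped, and the changes of 0.14 ± 0.06 and 0.13 ± 0.06 were not called. The gene opposite G6pdx is Ikbkg. Pgd, the next NADPH-yielding enzyme, changed by 0.20 ± 0.05 after cisplatin (adjusted p = 0.011), under the fold limit, with every cisplatin tumor (310 to 350 CPM) above every vehicle tumor (271 to 294 CPM).

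Taldo1, transaldolase of the non-oxidative branch of that pathway, was lower after cotreatment. It was at 125, 115, 124, 109 and 122 CPM in vehicle, 117, 106, 133, 119 and 101 in KW6002, 114, 96.8, 118, 122 and 123 in cisplatin, and 83.9, 87.1, 86.9, 108 and 96.5 CPM in cotreated tumors. Cotreated tumors lay below the vehicle tumors, though the highest came close to the lowest. The change from vehicle was -0.37 ± 0.08 (adjusted p = 0.00148), and in the later run alone -0.18 (adjusted p = 0.248). Tkt, transketolase, changed by 0.01 ± 0.08 and -0.07 ± 0.08.

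Abcc1, the pump MRP1 that carries glutathione conjugates out of cells, was lower in cotreated tumors than in any other group. It was at 261, 236, 258, 271 and 239 CPM in vehicle, 264, 238, 246, 252 and 221 in KW6002, 244, 251, 223, 229 and 335 in cisplatin, and 200, 186, 196, 216 and 196 CPM in cotreated tumors. The cotreated range did not overlap with the others. Against KW6002 the change was -0.30 (adjusted p = 0.00997), under the fold limit and so not called over all tumors. The change from vehicle was -0.35 ± 0.09 (adjusted p = 0.0031); it was -0.31 without cotreated replicate 2 (adjusted p = 0.0142, under the fold limit) and -0.27 in the later run alone (adjusted p = 0.222). Abcc4, a related exporter, changed by -0.01 ± 0.07 and 0.10 ± 0.07.

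Cotreated tumors were then compared with those given cisplatin alone, to see what KW6002 added. Gclc was higher, and Gss, Gstt1 and Abcc1 were lower: 4 of 47 members, 8.51%, were called against 4% of all genes (higher, 1 against 2.29% of all genes; lower, 3 against 1.71%). Gclc differed by 0.97 ± 0.17 (1.96-fold, adjusted p = 0.00405). Abcc1 differed by -0.37 ± 0.09 (adjusted p = 0.0146), Gss by -0.33 ± 0.08 (adjusted p = 0.0226) and Gstt1 by -0.63 ± 0.19 (adjusted p = 0.046). Taldo1, at -0.31 ± 0.08 (adjusted p = 0.0249), fell under the fold limit. It was called with upper quartile scaling (-0.32, adjusted p = 0.029). Without cisplatin replicate 2 or cotreated replicate 4 or 5 it was also called, at -0.37 to -0.33.

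Only Gclc kept its call in each fit that left out 1 tumor. Without cotreated replicate 2, 1 member was called, and without cotreated replicate 3 or cisplatin replicate 1, 3 or 5, 2 members were. Of all genes 289, 295, 849, 396 and 469 were called in these fits, in the same order. Abcc1 was at -0.25 without cisplatin replicate 5 (adjusted p = 0.0283) and at -0.34 without cotreated replicate 2 (adjusted p = 0.0522). Gss lost its call without cisplatin replicate 1 or 3 or cotreated replicate 2, 3 or 5, with values from -0.34 to -0.29. Gstt1 lost it in 15 of the 20 fits that left out 1 tumor. Without the tumors above 100 CPM of skeletal muscle genes, a choice made after seeing the data, 1 member was called, beside 222 of 17318 genes.

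Within each library run the 4 genes had the same direction, over fewer tumors; of all genes, 287 were called in the earlier run and 1 in the later run. Gclc differed by 1.16 in the earlier run (adjusted p = 0.229) and by 0.73 in the later run (adjusted p = 0.218), and with the run as a term in the fit by 0.98 (adjusted p = 0.00608). In a fit of only the 10 tumors compared it was 0.97 (adjusted p = 0.0603) and no member was called, beside 217 of 16121 genes. Abcc1 differed by -0.34 in the earlier run (adjusted p = 0.0373) and by -0.35 in the later run (adjusted p = 0.366). Gss differed by -0.30 and -0.33 in the 2 runs (adjusted p = 0.252 and 0.348). Gstt1 differed by -0.96 in the earlier and -0.25 in the later run (adjusted p = 0.053 and 0.686).

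The interaction asked whether the change from KW6002 differed with and without cisplatin. No member was called in edgeR, where 0.066% of all genes were, and 6 members had an unadjusted p under 0.05, as did 2034 of 16665 genes. The interaction for Gclc was 1.00 ± 0.24 on the log2 scale (adjusted p = 0.104). DESeq2 called 252 of 14045 genes and 2 members, Gclc at 1.01 (adjusted p = 0.00511) and Gstt1 at -0.88 (adjusted p = 0.0481).

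Cotreated tumors were also set against those given KW6002 alone, which isolates cisplatin when the antagonist is given to both. There were 8 members called, 17% against 23.3% of all genes. All 8 were higher (12.6% of all genes) and 0 lower (10.7%). This split depended on the fit. In the earlier run alone 5 members were higher and 3 lower (Gpx8, Taldo1 and Abcc1), beside 1815 and 1625 of 17708 genes. Without cotreated replicate 4 there were 8 higher and 4 lower, beside 2251 and 1807 of 16789 genes. Without the tumors above 100 CPM of skeletal muscle genes there were also 8 higher and 4 lower, beside 2198 and 1842 of 17318 genes. With no limit on the fold change 9 were higher and 6 lower, beside 2898 and 2939 of 16665 genes. Gclc changed by 1.76 ± 0.18 (adjusted p = 1.01e-06), Mgst2 by 1.05 ± 0.08 (adjusted p = 4.08e-08) and Nqo1 by 1.05 ± 0.18 (adjusted p = 0.000132). Every cotreated tumor lay above every KW6002 tumor for these 3 genes. Gclc differed by 2.02 in the earlier and by 1.49 in the later run alone, called in both. In this comparison 5 of the 7 markers of T and natural killer cells were called lower, as were 5 of 6 of endothelium. Of those tested, 5 of 5 of red blood cells and 4 of 5 of neutrophils were also called lower. The part of these cells in the values was not tested. When cotreated tumors were set against vehicle or cisplatin, 0 of the 7 markers of T and natural killer cells were called.

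A further 86 genes of the same pathways were listed, of which 77 were tested. After cisplatin 11 were higher and 3 lower, 18.2% against 10.6% of all genes. After cotreatment 15 were higher and 6 lower, 27.3% and close to the 23.5% of all genes, and between cotreatment and cisplatin 4 were higher and 1 lower, 6.49% against 4%. The 4 with the smallest adjusted p after cotreatment were Ephx1, Aox1, Sesn2 and Rpia. Ephx1, microsomal epoxide hydrolase, changed by 1.92 ± 0.13 (adjusted p = 1.33e-08), and Sesn2, a stress-induced sestrin, by 0.89 ± 0.09 (adjusted p = 5.26e-07). Aox1, aldehyde oxidase, had 41.9 ± 2.24 CPM in vehicle, 73.3 ± 7.93 in cisplatin and 98.1 ± 14.5 CPM in cotreated tumors, and it also differed between cotreatment and cisplatin (0.42 ± 0.10, adjusted p = 0.0175). Rpia, ribose 5-phosphate isomerase of the pentose phosphate pathway, was lower at -0.43 ± 0.06 (adjusted p = 7.67e-06).

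Another metallothionein, Mt3, was picked out after its values were seen. It is known from brain and was scarce here, at 0.280 ± 0.114 CPM in vehicle, 0.369 ± 0.142 in KW6002, 0.682 ± 0.226 in cisplatin and 1.06 ± 0.183 CPM in cotreated tumors, with at most 47 reads in a tumor. The changes were 1.28 ± 0.31 (adjusted p = 0.00742) and 1.91 ± 0.30 (adjusted p = 6.41e-05).

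The spread between tumors set how firmly each gene could be read. The coefficient of variation had a median over the members of 9.97% in vehicle, 9.86% in KW6002, 13.9% in cisplatin and 11.1% in cotreated tumors. It reached 94.4% for Gpx7 among the cisplatin tumors and 59.1% for Hmox1 among the cotreated tumors, and was 4.47% for Me1 among the cisplatin tumors.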

How the data were processed

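Poly(A) RNA of 20 subcutaneous LLC1 tumors, 5 per group by the labels, was sequenced by the authors (TruSeq stranded libraries, single-end). Reads were aligned with STAR to mm10 and uniquely mapped reads were counted per gene with HTSeq 0.6.1p1, per the labels and the study's methods; the strand option is not given in the sources used here. The deposited table holds raw counts per Ensembl gene, not normalized, with 28371364 to 40965731 counts per tumor; the number of tumors and this depth limit the precision. The labels do not say that each tumor came from its own mouse, though the study's methods describe injection into the right flank and treatment allotted by mouse. The p-values set group differences against the spread between these tumors. Of 35226 genes, 35142 matched GENCODE M21 by ID.

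Genes were filtered by filterByExpr, scaled by TMM and fitted over all 20 tumors in edgeR 4.0.16 (quasi-likelihood, robust; R 4.3.3); p-values were adjusted by Benjamini-Hochberg over the 16665 genes tested, which held 99.9% of counts. A gene was called at adjusted p under 0.05 and an absolute log2 fold change of at least 0.32. CPM use TMM-scaled totals and RPKM use the union of exons. On simulated data for cisplatin with vehicle (16593 genes), 97 of 100 genes changed by 1 on the log2 scale and 27 of 100 changed by 0.5 were recovered. The simulation gave every gene the same spread and changed only well-covered genes. These shares therefore do not apply to members with a wider spread, such as Mt1, Mt2, Gpx3, Gpx7, Mgst1 and Hmox1.

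Alternatives were DESeq2 1.42.0, other scaling, filters and fold limits, the library run as a term, each run alone, fits of the compared groups only, a replicate block, and leaving out each tumor. Values were given per tumor for 11 listed genes (Nfe2l2, Keap1, Nqo1, Hmox1, Gclc, Slc7a11, Mt1, Mt2, Sod2, Cat and G6pdx), for the gene with the smallest adjusted p of each role where called after cisplatin or cotreatment, and for each member called between cotreatment and cisplatin; of the other pathway genes the 4 with the smallest adjusted p after cotreatment were named. The members, roles and lists were chosen with earlier results of these data known. Marker lists covered macrophages, neutrophils, T and natural killer cells, endothelium, fibroblasts, adipocytes, skeletal muscle, epidermis, red blood cells, hepatocytes, kidney tubule and lung epithelium. Promoters are RefSeq sequences on GRCm38.p6; 42 members had a full entry.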

Additional observations from a re-analysis of the deposited data

Results flagged for a closer look

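Among 188 groups of 5 tumors (47 members in 4 groups), 8 held a tumor set apart from the other 4 by more than Dixon's 95% limit, where chance sets apart about 1 in 20. Nfe2l2 was at 296 CPM in KW6002 replicate 5 and at 267 to 273 CPM in the others of that group. In vehicle replicate 2, Gss was at 22.7 CPM (others 19.1 to 19.7) and Mgst1 at 17.3 CPM (others 7.21 to 9.46). Akr1b8 stood high in vehicle replicate 4, at 198 CPM against 161 to 169, and in KW6002 replicate 3, at 176 CPM against 148 to 155. Mgst2 was at 41.7 CPM in cisplatin replicate 2 and at 32.0 to 34.3 CPM in the others given cisplatin alone. Abcc1 was at 335 CPM in cisplatin replicate 5 against 223 to 251 CPM, and Me1 was lowest in cotreated replicate 5, at 25.0 CPM against 28.3 to 29.4 CPM. The metallothioneins are not among these, since 2 cisplatin tumors were high together and the rule looks for a single one.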

How the results depend on the processing

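Of 33 calls of a member in a comparison, 20 kept direction and threshold in every alternative other than leaving out a tumor, 24 in every fit that left out 1 tumor and 19 in both; 0 values reversed. Fits that left out 1 tumor are given in the next paragraph. In the other fits, counts of called members stayed within 1.5 times of those reported apart from these, whose cause was not tested. Between cotreatment and cisplatin, 4 members were called, but 2 with no filter on low counts, 2 in the earlier and 0 in the later library run alone, 0 in a fit of the compared tumors only, and 1 without the tumors above 100 CPM of muscle genes (chosen after seeing the data; it leaves 2 cisplatin tumors). With no filter, 485 of 35226 genes were called between cotreatment and cisplatin, against 667 of 16665 as reported. Between cotreatment and KW6002, 15 members in place of 8 passed with no limit on the fold change. DESeq2 called 2 interactions in place of 0.

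Leaving out each tumor gave 0 to 0 members called for KW6002 with vehicle and 6 to 10 for cisplatin with vehicle. Cotreated tumors gave 10 to 14 against vehicle, 1 to 5 against cisplatin and 8 to 12 against KW6002. The interaction gave 0 to 2, the 2 without cotreated replicate 4. Over the same fits the counts over all genes were 0 to 0, 1379 to 2067, 3327 to 4063, 289 to 1013, 3289 to 4058 and 0 to 229, in that order.

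Counts over all genes moved by over 1.5 times as follows. With no fold limit they were 2752 for cisplatin with vehicle (1762 as reported), 5906 when cotreated tumors were set against vehicle (3914), 1086 against cisplatin (667) and 5837 against KW6002 (3884). In the later run alone they were 2743, 2209, 1 and 1654 in that order. For cotreatment with cisplatin they were 287 in the earlier run, 217 with the compared tumors only and 222 without the tumors high in muscle genes. For the interaction (11 as reported) they were 252 by DESeq2, 21 with no filter, 39 with at least 10 counts in every tumor, 17 with the run as a term, 0 in the later run, 0 with the replicate block and 45 without the tumors high in muscle genes. For cotreatment with cisplatin, dropping the cotreated replicates 2, 3 and 4 in turn gave 289, 295 and 1013 genes, and dropping replicate 3 of the cisplatin group gave 396. The interaction ran from 0 genes to 229 over the fits that left out 1 tumor, the highest with cotreated replicate 4 dropped.

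Replicate numbers are shared between groups but did not pair the tumors: over 30 pairs of the same number the correlation of deviations had a median of -0.0258, 12 exceeded 0.1, and 3 of 20 tumors matched best with their own number. With a replicate block the members called were 0, 8, 12, 4, 8 and 0 in the order of the comparisons above, beside 0, 1610, 3769, 584, 3768 and 0 of all genes, and Cbr3 after cisplatin was the call lost (0.38, adjusted p = 0.0841). Levels per length over the longest transcript were compared for vehicle tumors only, and 38 of 47 ranks changed. The fewest reads behind any member's value were the 16 for Gpx7 in cisplatin replicate 1, where depth limits precision.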
